A study of Mus musculus with 11 samples.

Results

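Isg15, Irf7, Mx1, Usp18, Bst2, Rsad2, Cxcl10 and Ddx58 are interferon-stimulated genes that encode antiviral effectors, a transcription factor, a chemokine and an RNA sensor. These 8 genes were picked by symbol from a deposited striatal RNA-seq table, and each symbol matched 1 of its 1767 genes. The table was made from EmGFP-positive, propidium iodide-negative cells sorted by FACS from the striatum of wild-type male C57BL/6 mice. In all 11 samples an AAV vector that expresses EmGFP and miR RNAi from the CAG promoter had been injected into both striata at 6 weeks of age, and the tissue was taken 3 weeks later. The 6 NT2 control samples (replicates 3, 5, 7, 9, 21 and 23) received the non-targeting NT2 vector. The 5 knockdown samples (replicates 4, 6, 8, 10 and 22) received the YA-8/YC-2 vector, which expresses miR RNAi against NF-YA and NF-YC, subunits of the CCAAT-binding trimer NF-Y. The CAG promoter is active in most cell types, and since 1 knockdown vector was set against 1 control vector, a response to NF-Y loss and a response to that vector cannot be told apart. All 1767 genes of the table had been chosen by the authors by a p-value under 0.05 on this same contrast, so every test between the groups below describes a table of genes that were already known to differ.

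Type I interferon signalling begins when sensors such as RIG-I bind foreign RNA in the cytoplasm and activate interferon regulatory factors, which switch on the interferon beta gene. Secreted interferon then acts through its receptor on a short promoter element, the interferon-stimulated response element (ISRE), and so turns on a large set of antiviral genes in the same and in neighbouring cells. Neurons, astrocytes, microglia and endothelial cells of the brain can all respond to it, and in these bulk samples a change in the number of cells of a type and a change in RNA per cell cannot be told apart.

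RefSeq promoter sequences (GRCm38.p6, 250 bases before to 50 bases after the start) were at hand for 6 of the 8 genes, all but Mx1 and Usp18. They were searched on both strands for the ISRE core GAAANNGAAA, which reads TTTCNNTTTC on the other strand, and for the NF-Y motif CCAAT, which reads ATTGG. The ISRE core was found in 5 of the 6 promoters, those of Isg15, Bst2, Rsad2, Cxcl10 and Ddx58, against 3.44% of all 32851 promoters of this length and 4.71% of the 1594 promoters of genes in the table. The promoters of the 4 genes with a match before the start follow, 90 bases each on the minus strand and in the 5′ to 3′ direction of the gene, with the matches in capitals.
Isg15, chr4:156200841-156200930: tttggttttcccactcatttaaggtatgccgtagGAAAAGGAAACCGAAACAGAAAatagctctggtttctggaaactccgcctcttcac
Bst2, chr8:71537550-71537639: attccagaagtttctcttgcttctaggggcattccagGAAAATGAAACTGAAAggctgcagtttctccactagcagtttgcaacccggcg
Rsad2, chr12:26456523-26456612: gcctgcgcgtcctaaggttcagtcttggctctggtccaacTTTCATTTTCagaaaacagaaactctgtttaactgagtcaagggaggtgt
Cxcl10, chr5:92349050-92349139: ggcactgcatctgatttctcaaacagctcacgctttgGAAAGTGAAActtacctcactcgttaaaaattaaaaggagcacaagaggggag

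The Isg15 promoter held 3 overlapping matches, from 78 to 57 bases before the start, and the Bst2 promoter 2 overlapping matches, from 130 to 115 bases before it. The single matches of Rsad2 and Cxcl10 began 120 and 213 bases before the start, and that of Ddx58 lay within the 50 bases after it. The letters of the ISRE core were not in the Irf7 window. CCAAT was found in 1 of the 6 promoters, that of Cxcl10, from 54 to 50 bases before the start, against 37.4% of all promoters. The 90 bases that hold it follow, with the motif in capitals.
Cxcl10, chr5:92348897-92348986: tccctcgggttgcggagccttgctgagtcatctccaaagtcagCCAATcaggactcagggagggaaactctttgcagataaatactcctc
A match describes letters in a window and does not show that a factor binds there.

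The targeted gene Nfyc, which encodes the NF-YC subunit, was set against the labels. Like every gene of the table, it had been selected on this contrast. Values are given as normalized counts, which are the authors' estimated reads per gene divided by a scaling factor per sample. Under NT2, Nfyc was at 957 ± 145 (SD, n = 6), and under knockdown at 766 ± 138 (SD, n = 5). The knockdown values were 927, 792, 845, 569 and 696 in replicates 4, 6, 8, 10 and 22, and the control values ran from 804 to 1178 with a median of 948, so that the groups overlapped. The log2 fold change of knockdown over control was -0.32 (SE 0.14), with an adjusted p of 0.053 in edgeR's quasi-likelihood test, Benjamini-Hochberg adjusted over the 1767 genes. The change had the direction given by the labels but was not called. Nfya and Nfyb were not analysed here. By qRT-PCR of the sorted cells, the paper reports reduced NF-YC, while its reduction of NF-YA was not significant.

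All 8 antiviral genes were up-regulated in the knockdown samples at an adjusted p under 0.05, beside 32.2% of the 1767 genes called up and 47.3% called down. Their log2 fold changes ran from 0.90 for Bst2 to 1.70 for Rsad2 with a median of 1.03, while the median over the table was -0.27. TMM scaling computed on the listed genes moved that table median by 0.13 on the log2 scale and changed the background to 689 genes called up and 377 called down, from 569 and 836, while all 8 genes were still called up. The groups did not overlap for 3 of the 8 genes (Mx1, Rsad2 and Ddx58), beside 6.9% of the table's genes with every knockdown sample above every control sample. For the other 5 genes, control replicate 3 lay above the lowest knockdown sample. Without this library the groups did not overlap for 6 of the 8 genes, beside 13.9% of the table's genes, and the log2 fold changes had a median of 1.37. Without knockdown 10 they did not overlap for 5 of the 8, beside 10.8% of the table's genes. When each sample was left out in turn, Irf7, Mx1, Usp18, Rsad2 and Ddx58 were called in 11 of 11 fits, Isg15 in 3, and Bst2 and Cxcl10 in 2 each, with the highest adjusted p at 0.072, 0.076 and 0.072 (edgeR). With replicates 3 to 10 alone, 7.24% of the table was called up, Mx1, Rsad2 and Ddx58 among them. Irf7 (log2 fold change 1.43, adjusted p = 0.071), Usp18 (1.2, 0.061), Isg15 (1.09, 0.105), Bst2 (0.89, 0.135) and Cxcl10 (0.93, 0.130) were not called in that fit. A glial marker score, the mean centred log2 level of 7 markers, was also added as a covariate. None of the 8 was then called, beside 1.53% of the table called up. Their median log2 fold change was 0.70 in this fit. The lowest were Bst2 at 0.22, Cxcl10 at 0.37 and Isg15 at 0.48, and the highest Mx1 at 1.47 and Rsad2 at 1.23.

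**Figure D1:**
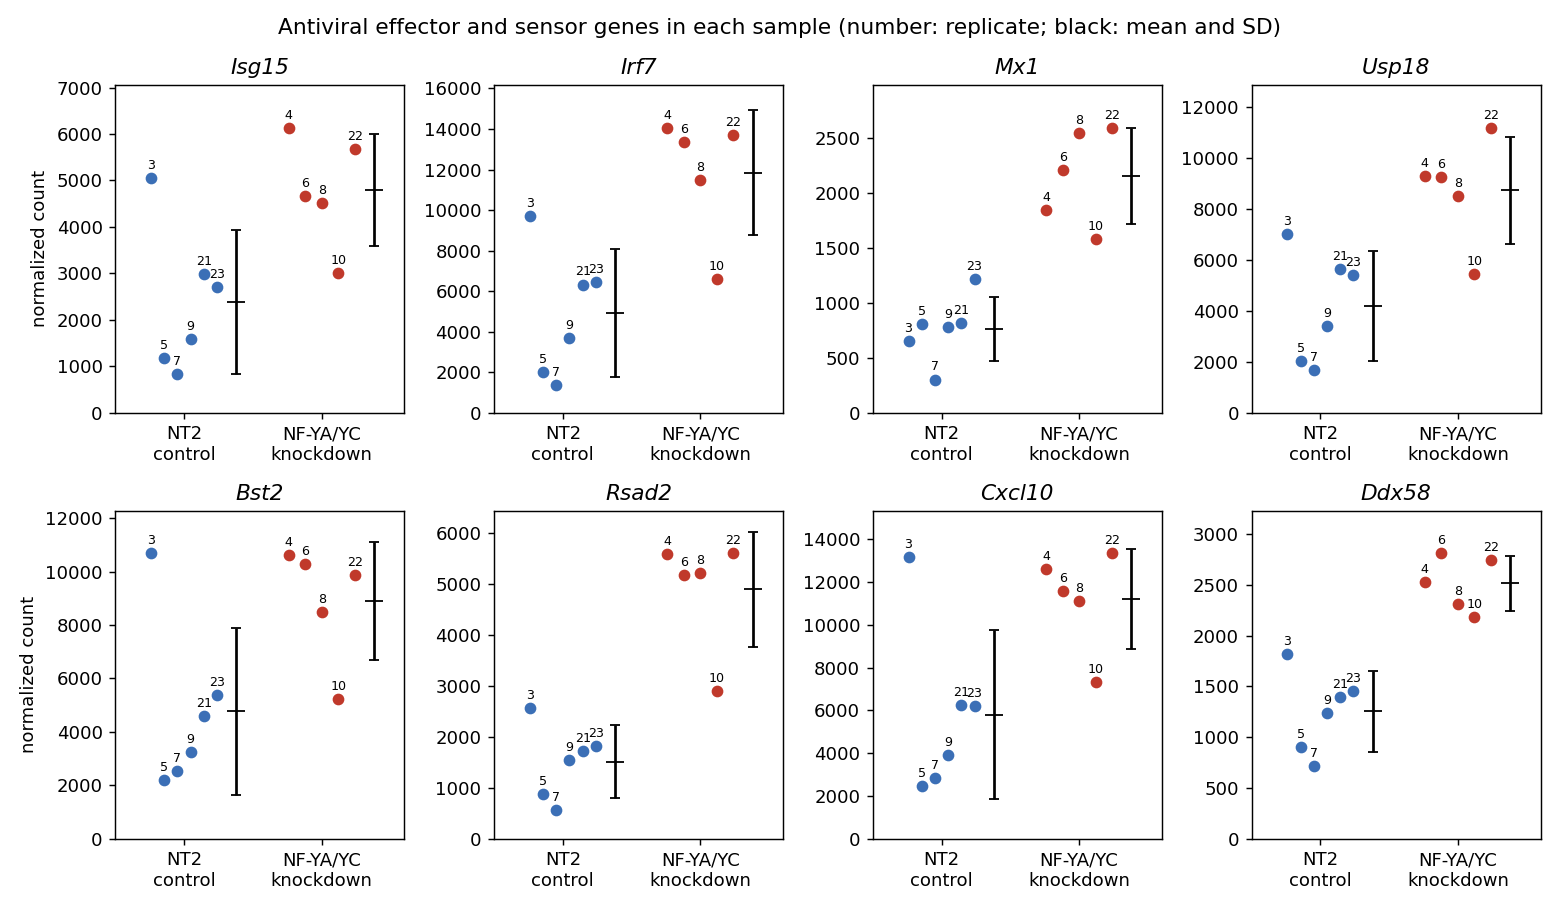
Normalized counts of the 8 genes in each sample, 1 panel per gene with an axis from 0, NT2 control samples in blue (n = 6) and NF-YA/YC knockdown samples in red (n = 5). Numbers are replicates and black marks are mean and SD. Control replicate 3 is the highest control in every panel except that of Mx1, and knockdown replicate 10 is the lowest knockdown sample in all 8.

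Library 3 of the controls stood apart from the others over the whole table. Its root mean square log2 distance to the mean of the other controls was 0.876, against 0.603 to 0.637 for each of the other 5 controls, and its distance to the knockdown mean was 1.02. It had the lowest scaling factor (0.66, others 0.846 to 1.27) and the lowest sum of listed counts (1581757, the others 1954949 to 3141324). These sums hold the counts of the table's genes and do not give library depth.

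The sensor Ddx58 encodes RIG-I, a helicase that binds viral RNA and signals through the mitochondrial adaptor MAVS. It lies at chr4:40150810-40186858 on the minus strand (the table's coordinates, mm9). Its normalized counts were 719 to 1823 in the controls with a median of 1318, and 2533, 2812, 2313, 2182 and 2752 in knockdown replicates 4, 6, 8, 10 and 22. All 5 knockdown samples were above all 6 controls, and the knockdown samples lay closer together for Ddx58 than for any other of the 8 genes (SD of 0.16 on the log2 scale). The log2 fold change was 1.0 (SE 0.20, adjusted p = 0.0069, edgeR). The difference of the mean log2 levels was 1.06, with a two-sided exact permutation p of 0.0043 over all divisions of the samples, where 0.0022 is the smallest p the design allows.

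Irf7 encodes the transcription factor that amplifies type I interferon production once it has been induced, and it had the widest spread of the 8 genes among the controls (SD of 1.08 on the log2 scale). The control values were 9725, 2022, 1390, 3715, 6331 and 6434 in replicates 3, 5, 7, 9, 21 and 23. The knockdown values were 14066, 13374, 11470, 6617 and 13719 in replicates 4, 6, 8, 10 and 22. Knockdown replicate 10 was on the level of controls 21 and 23 and below control 3, and the other 4 knockdown samples were above all controls. The gene lies at chr7:148449088-148452300 (mm9, minus strand). Its log2 fold change was 1.26 (SE 0.42, adjusted p = 0.027, edgeR), and the exact permutation p was 0.011.

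Isg15 encodes a ubiquitin-like protein that is attached to other proteins, and Usp18 the protease that removes it and that also restrains signalling at the interferon receptor. Isg15 (chr4:155573533-155574927, mm9) ran from 830 to 5046 in the controls with a median of 2152. Its knockdown values were 6136, 4660, 4514, 3015 and 5677 in replicates 4, 6, 8, 10 and 22. Control 3 was above knockdown replicates 6, 8 and 10, and the other 5 controls were below all knockdown samples. The log2 fold change of Isg15 was 1.01 (SE 0.39, adjusted p = 0.038, edgeR).

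Usp18 (chr6:121195924-121220935, mm9) ran from 1687 to 7011 in the controls with a median of 4399. Its knockdown values were 9282, 9228, 8495, 5437 and 11180 in replicates 4, 6, 8, 10 and 22. Only replicate 10 of the knockdown fell into the range of the controls, between control 23 at 5391 and control 21 at 5633. The log2 fold change of Usp18 was 1.06 (SE 0.34, adjusted p = 0.025, edgeR). None of the 4 listed enzymes that attach ISG15 was in the table.

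Among the effectors, Rsad2 encodes viperin, a radical SAM enzyme that makes a chain-terminating nucleotide, and it showed the highest log2 fold change of the 8 genes. Its control values ran from 557 to 2568 with a median of 1629. Its knockdown values were 5577, 5179, 5219, 2897 and 5596 in replicates 4, 6, 8, 10 and 22. The groups did not overlap, although replicate 10 of the knockdown lay nearer to control 3 than to the other knockdown samples. Rsad2 (chr12:27127608-27141317, mm9) had a log2 fold change of 1.70 (SE 0.32, adjusted p = 0.0062, edgeR) and an exact permutation p of 0.0043.

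Bst2 encodes tetherin, a membrane protein that holds budding virus particles on the cell surface. Its control values ran from 2191 to 10679 with a median of 3920, and its knockdown values were 10633, 10285, 8475, 5232 and 9883 in replicates 4, 6, 8, 10 and 22. It was the only one of the 8 genes for which control 3 was above every knockdown sample, and control 23 at 5362 was above replicate 10 as well. Bst2 (chr8:74058161-74061336, mm9) had the lowest log2 fold change, 0.90 (SE 0.36, adjusted p = 0.042, edgeR), and an exact permutation p of 0.043. With 1 sample left out at a time, the log2 fold change ran from 0.75 without control 5 to 1.31 without control 3 (adjusted p from 0.0033 to 0.076), and the call was kept in 2 of 11 fits.

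Cxcl10 encodes a secreted chemokine that attracts T cells through the receptor CXCR3. Its control values ran from 2466 to 13168 with a median of 5048, and its knockdown values were 12628, 11591, 11116, 7315 and 13341 in replicates 4, 6, 8, 10 and 22. Control 3 was above 4 of the 5 knockdown samples, while the other 5 controls were below all of them. Cxcl10 (chr5:92775667-92777880, mm9), the gene with the CCAAT match shown above, had a log2 fold change of 0.95 (SE 0.37, adjusted p = 0.040, edgeR), and with 1 sample left out at a time from 0.79 without control 5 to 1.37 without control 3 (adjusted p from 0.0031 to 0.072), with the call kept in 2 of 11 fits.

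Mx1 encodes a nuclear dynamin-like GTPase that blocks influenza virus, and C57BL/6 mice carry a defective allele that gives no functional protein. The control values were 650, 811, 303, 777, 812 and 1216 in replicates 3, 5, 7, 9, 21 and 23. The knockdown values were 1845, 2204, 2547, 1580 and 2591 in replicates 4, 6, 8, 10 and 22. The groups did not overlap, and control 3 was here the second lowest control. Mx1 (chr16:97668642-97684513, mm9) had a log2 fold change of 1.50 (SE 0.27) and the lowest adjusted p of the 8 genes (0.0043, edgeR), with an exact permutation p of 0.0043.

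Levels of different genes were compared per kilobase of the longest transcript in GENCODE M21. In the controls the mean normalized count per kilobase was 6019 ± 3963 (SD, n = 6) for Bst2, 3162 ± 2055 for Isg15, 2602 ± 1773 for Cxcl10, 2366 ± 1213 for Usp18 and 1524 ± 973 for Irf7. Each of these genes differed from its neighbour in the order by less than the larger of both SDs. Rsad2 at 361 ± 171, Ddx58 at 324 ± 103 and Mx1 at 225 ± 87.1 formed a lower tier. In the knockdown samples Bst2 was again the highest, at 11240 ± 2789 (SD, n = 5), and Mx1 the lowest, at 636 ± 130, next to Ddx58 at 650 ± 70.3. Exons of Irf7, Usp18 and Cxcl10 overlap those of a gene on the opposite strand in GENCODE M21 (Phrf1, Gm44148 and Art3), and the library kits named in the labels do not mark strand, so that reads of the overlapping genes cannot be told apart there.

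The genes varied together among the control samples. Control 7 was the lowest control for 6 of the 8 genes and control 5 for the other two, and both were the lowest pair for 7. Control 9 was above exactly 2 other controls for all 8 genes. For the genes other than Mx1, controls 21 and 23 came next and control 3 was the highest. The SD of the log2 levels among controls ran from 0.49 for Ddx58 to 1.08 for Irf7, against a median of 0.35 over the table. It was larger in the controls than in the knockdown samples for all 8 genes, beside 66.2% of the table's genes.

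Over the 6 controls, the log2 levels of the 28 pairs of genes had a median Pearson r of 0.93, and 18 of the 28 pairs exceeded 0.9, against 1.39% of all pairs among the 1761 genes with variable control counts. The 21 pairs without Mx1 ranged from 0.863 (Bst2 with Rsad2) to 0.996, with Spearman's rho from 0.886 to 1. Each of these 21 pairs had an exact permutation p under 0.05 after adjustment over the 28 pairs, the highest being 0.041 for r and 0.044 for rho. When the 2 samples whose first-named gene lay farthest from its median were left out, r stayed between 0.848 and 0.992 for these 21 pairs, and without control 3 between 0.835 and 0.996. The genes were chosen with their levels known, and all 8 values of a sample come from 1 library with 1 scaling factor, so these values describe this set. The values of r with samples left out rest on 4 or 5 samples and are given without a test.

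The 7 pairs with Mx1 had a Pearson r from 0.286 with Bst2 to 0.656 with Rsad2, with a rho from 0.143 to 0.371. None passed the exact permutation test (adjusted p from 0.208 to 0.588). Leaving out the 2 farthest samples turned r negative for 6 of these pairs, down to -0.877 with Bst2. Without control 3, in which the other 7 genes were at their control maximum and Mx1 was not, r with Mx1 was 0.589 to 0.858, against 0.835 to 0.996 for the other pairs. The difference between the correlations with and without Mx1 was not tested.

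**Figure D2:**
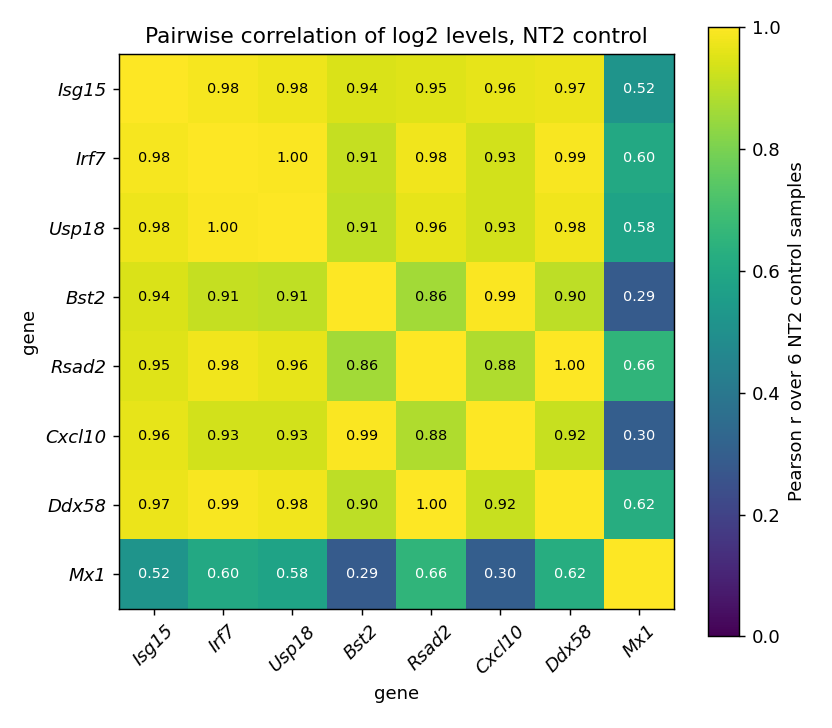
Pearson r of the log2 levels for each pair of the 8 genes over the 6 NT2 control samples, with colour from 0 to 1 and Mx1 placed last. Pairs without Mx1 lie at 0.863 or above, and pairs with Mx1 at 0.656 or below.

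The knockdown group has fewer than the 6 samples used for a correlation, and the order of its samples is given instead. Replicate 10 was the lowest of the knockdown samples for all 8 genes. The highest was replicate 22 for 4 genes (Mx1, Usp18, Rsad2 and Cxcl10), replicate 4 for 3 (Isg15, Irf7 and Bst2) and replicate 6 for Ddx58. Mx1 again took another order, with replicate 4 second lowest, where the same sample was first or second for 6 of the other 7 genes. The SD of the log2 levels in this group ran from 0.16 to 0.46.

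**Figure D3:**
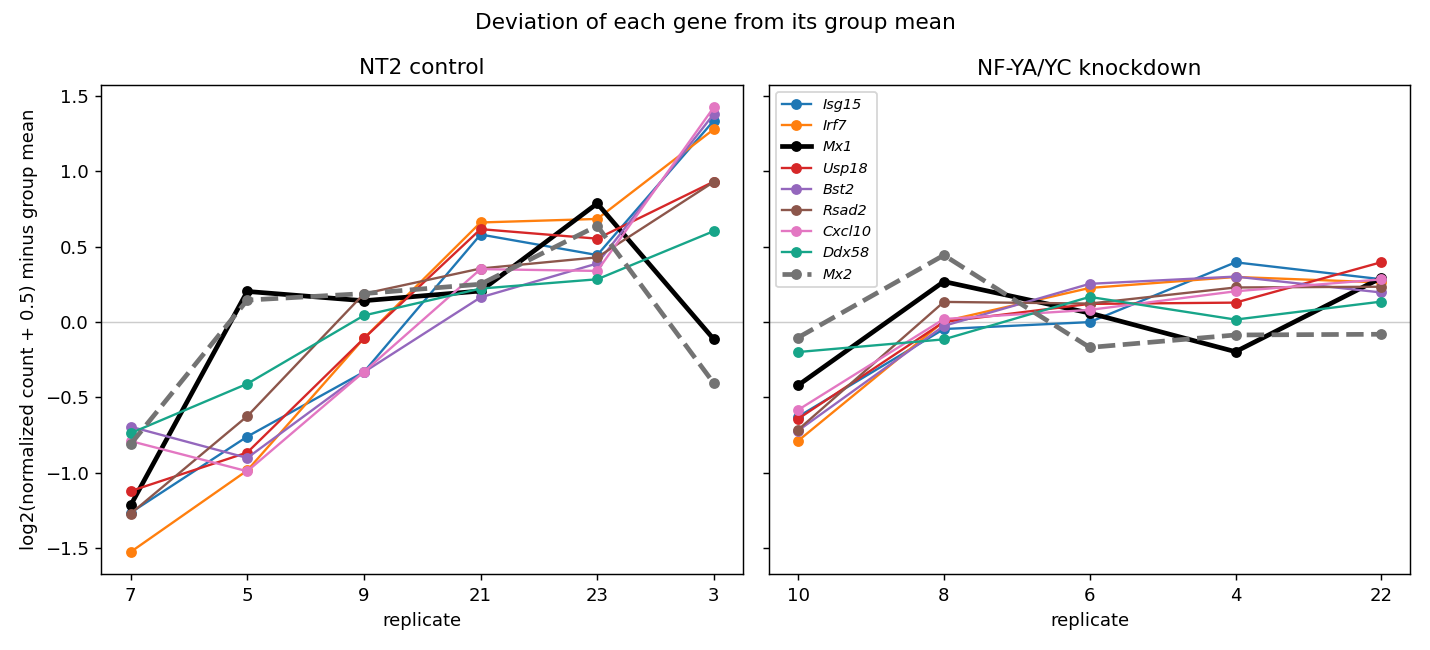
Deviation of log2(normalized count + 0.5) from the group mean for the 8 genes and Mx2, in NT2 control samples (left) and knockdown samples (right), with replicates ordered by hand from low to high. Lines join the values of 1 gene. The other 7 genes are low in controls 7 and 5 and highest in control 3, where Mx1 (black) and Mx2 (dashed) are below their group mean, and all 8 genes are lowest in knockdown 10.

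The genes of the table most like the 8 were found from the Pearson r over the 11 samples, after the group means had been subtracted, to the mean of the 8 scaled profiles. The 10 nearest were Pydc4, I830012O16Rik, Oas1g, Oasl2, Oas1a, Trim30a, Ifit3, Oas3, Ms4a4c and Pyhin1, with r from 0.988 to 0.969, against a median of -0.06 over the table. Of these, 6 belonged to the interferon lists described below. Each of the 8 genes was also set against the mean of the other 7 on the same scale, and r was 0.541 for Mx1 and 0.90 to 0.995 for the others.

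Mx2, the neighbouring Mx gene whose product acts in the cytoplasm, was picked after its values were seen because its profile resembled that of Mx1 (r of 0.878 over the 11 group-centred samples, second in the table). Mx2 was at 344, 504, 260, 520, 543 and 710 in control replicates 3, 5, 7, 9, 21 and 23, and at 1007, 951, 1454, 995 and 1010 in knockdown replicates 4, 6, 8, 10 and 22. As for Mx1, the groups did not overlap, control 3 was the second lowest control and control 23 the highest. The log2 fold change of Mx2 was 1.17 (SE 0.22, adjusted p = 0.0062, edgeR).

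The other genes of the pathway were taken from 7 lists of 144 genes without the 8. Of these, 39 were in the table, 35 were called up, 1 was called down and 3 were not called, beside 32.2% of all genes of the table called up and 47.3% called down, which is the background for each list that follows. Their median log2 fold change was 0.90. Of 27 genes of interferon signalling and its transcription factors, only Ifnb1 and Socs3 were in the table, and both rose. Ifnb1, which encodes interferon beta, was at a low level, 31 to 94 in the controls with a median of 57.2, and 60, 180, 102, 76 and 182 in knockdown replicates 4, 6, 8, 10 and 22. Its groups overlapped, control 3 was at 41, and its log2 fold change was 1.05 (SE 0.36, adjusted p = 0.028, edgeR). Socs3, a feedback inhibitor of cytokine receptors, had a log2 fold change of 0.38 (SE 0.15, adjusted p = 0.044).

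Of 21 nucleic acid sensors and adaptors, 5 were in the table and 4 rose. They were Dhx58 (LGP2, a relative of RIG-I, log2 fold change 0.87), Eif2ak2 (the kinase PKR, 0.72), Trim25 (a ubiquitin ligase that acts on RIG-I, 0.69) and Trex1 (a DNA exonuclease, 0.54). Ifih1, which encodes the long-RNA sensor MDA5, had a log2 fold change of 0.77 with an adjusted p of 0.060. Of 44 other antiviral effectors, 17 were in the table and 16 rose, among them Isg20 (an RNA exonuclease, 1.27), Ddx60 (1.18), Ifitm3 (which blocks virus entry, 1.02) and Adar (an RNA editing enzyme, 0.56), while Lgals3bp at 0.88 had an adjusted p of 0.055. Of 19 Oas and Ifi/Ifit genes, 14 were in the table and 13 rose, from 0.92 for Oas1a to 2.16 for Oasl1, and Ifit2 at 1.0 had an adjusted p of 0.055. Of 15 chemokines and cytokines other than Cxcl10, only Il18 was in the table, and it fell by 0.46 on the log2 scale (adjusted p = 0.011). None of the 14 interferon-inducible GTPases was in the table. Control 3 was the highest control for 30 of the 39 genes.

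**Figure D4:**
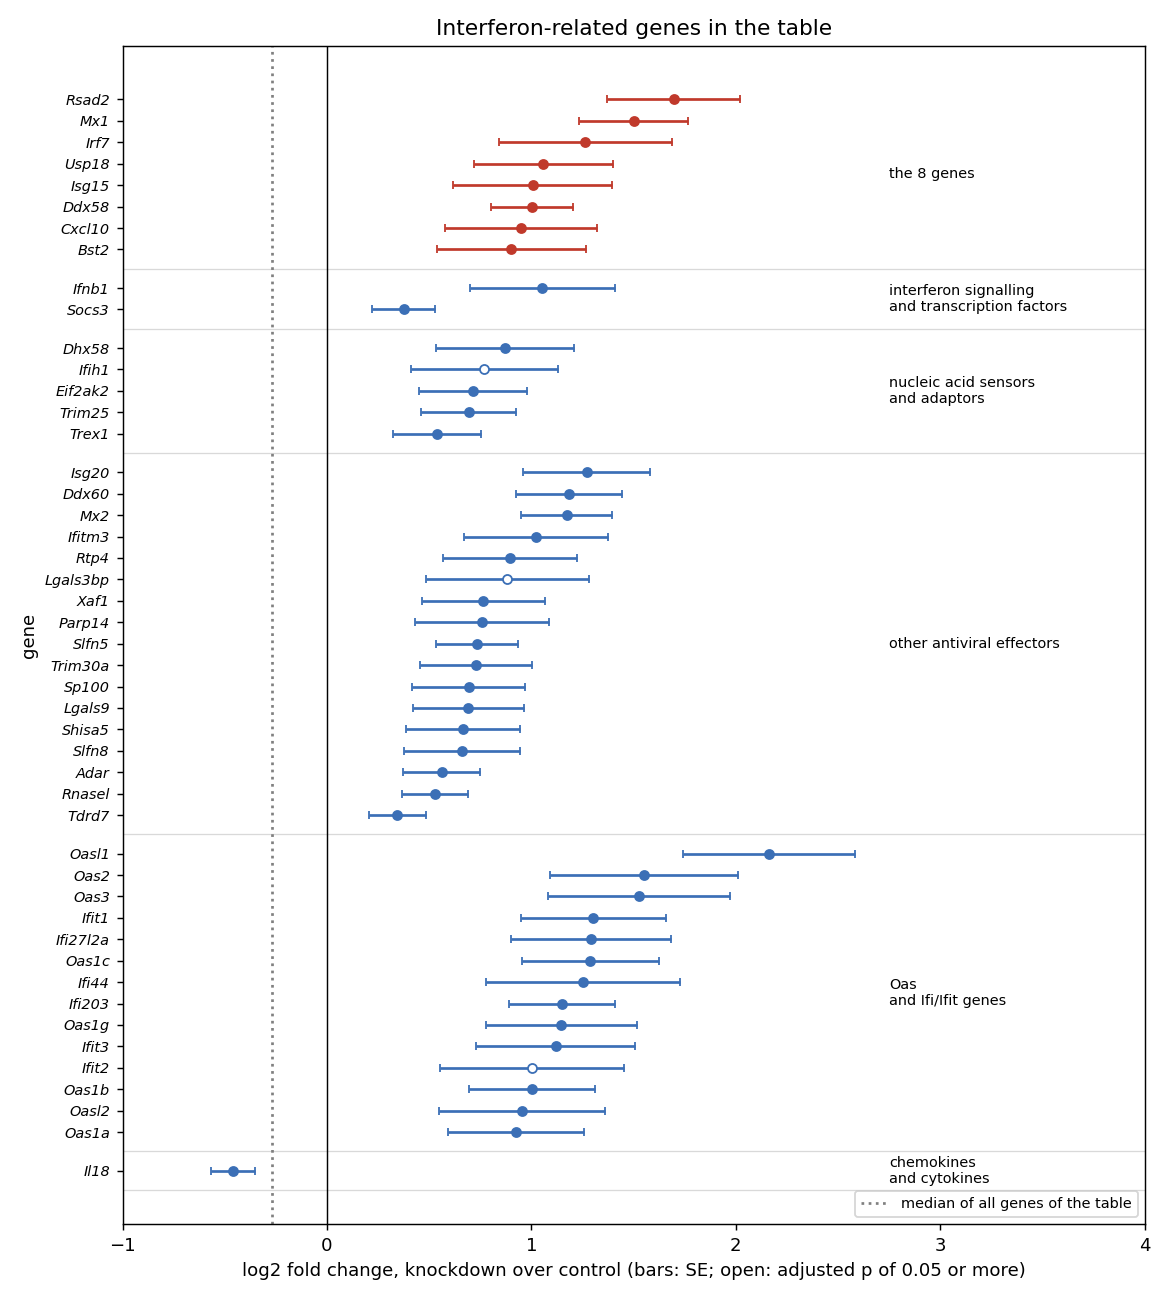
Log2 fold change of knockdown over control with its SE for the 8 genes (red) and the 39 other interferon-related genes of the table (blue), grouped by list. Open points have an adjusted p of 0.05 or more, and the dotted line is the median of the 1767 genes at -0.27. Rsad2 and Mx1 are the highest of the 8, and Il18 is the only gene below 0.

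Markers of other cell types moved with the groups. The 5 of 12 astrocyte markers in the table (Slc1a3, Gja1, Gjb6, Aldoc and Fgfr3) were all down-regulated, beside 47.3% of all genes of the table, and their summed normalized count was 23930, 58148, 47974, 44000, 80251 and 27235 in control replicates 3, 5, 7, 9, 21 and 23. It was 13060, 14682, 20506, 24493 and 30537 in knockdown replicates 4, 6, 8, 10 and 22, with Slc1a3 as the most abundant gene. Control 3, with the highest level of most antiviral genes, had the lowest astrocyte sum of the controls, and control 23 came next at 27235. Controls 5 and 7, the lowest pair for 7 of the 8 genes, had sums of 58148 and 47974. Control 21, above controls 5, 7 and 9 for all 8 genes, had the highest sum. Among the knockdown samples, replicate 22, the highest for 4 of the 8 genes, had the highest astrocyte sum. Replicate 4, the highest for 3 of the 8, had the lowest. Replicate 10, the lowest for all 8 genes, was below replicate 22 alone, at 24493. A relation between these sums and the antiviral genes was not tested. P2ry12, the 1 of 16 microglia markers in the table, was at 12117 to 15252 in the knockdown samples and at 13199 to 26580 in the controls, lowest in control 3. Ugt8a, the 1 of 13 oligodendrocyte markers, and the 8 of 12 vascular markers in the table (most abundant gene Slco1a4) also fell, against the same 47.3% of the table. Ugt8a was at 9565 to 11279 in the knockdown samples and at 10376 to 22632 in the controls, and the vascular sum at 4417 to 7550 and at 6650 to 11331.

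Of 17 infiltrating leukocyte markers, 2 were in the table, Ly6c2 and Siglec1. Ly6c2, a surface protein of inflammatory monocytes that also responds to interferon, was at 2930, 37, 93, 145, 662 and 509 in control replicates 3, 5, 7, 9, 21 and 23, and at 2412, 2468, 1506, 719 and 1495 in knockdown replicates 4, 6, 8, 10 and 22. Controls 5, 7 and 9 were the lowest and control 3 the highest, as for most of the antiviral genes, with a log2 fold change of 1.25 (SE 0.85) and an adjusted p of 0.167 in edgeR. Siglec1, a macrophage sialic acid receptor that is also interferon-inducible, was at 196 to 525 in the controls, lowest in control 3, and at 448 to 993 in the knockdown samples (log2 fold change 1.28, adjusted p = 0.011). The summed count of this list was 3127 in control 3, 266 to 986 in the other controls and 1166 to 3418 in the knockdown samples. The 15 other leukocyte markers, including Ptprc and Cd3e, were not in the table. Neither were the 8 neuron and 14 striatal projection neuron markers. The identity of the sorted cells could therefore not be checked against any of these. In brain sections, the paper found most EmGFP-expressing cells positive for the neuronal marker NeuN. It also reports genes of glial cells among its differential genes, and it took non-neuronal genes out of its final list. The table used here still holds astrocyte markers.

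When the mean centred log2 level of the 7 glial markers (astrocyte, oligodendrocyte and microglia) was added to the edgeR fit as a covariate, none of the 8 genes was called, and their log2 fold changes fell to between 0.22 for Bst2 and 1.47 for Mx1 (adjusted p from 0.063 to 0.654). At an unadjusted p under 0.05, 3 of the 8 were higher in this fit, Mx1, Rsad2 and Ddx58, beside 15.4% of all genes of the table. In this fit 27 genes of the table were called up and 7 down. The score was 0.47 ± 0.65 (SD, n = 6) in the controls and -0.56 ± 0.37 (SD, n = 5) in the knockdown samples, and -0.54 in control 3 against 0.09 to 1.29 in the other controls. The 7 markers, like every gene of the table, had been selected on the same contrast. That selection does not fix a direction, but edgeR called each of the 7 down, so the score went with the groups. A fit with this score cannot separate it from the groups, and the cause of the lost calls over the whole table was not tested. The fit is therefore no test of cell composition, whose part in the higher antiviral gene levels was not tested.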

How the data were processed

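The labels gave the vector and a number per sample, and the groups share no number. The labels' processing notes name mm9 as the genome build. With Strand NGS, the authors made estimated counts per gene, deposited without normalization and partly fractional (54.3% whole within 0.01). In the same table the authors gave log2 values, scaled per sample and centred per gene. From 1247 genes with over 50 counts in every sample these gave the authors' scaling factors. Which genes the factors rest on, the aligner and the annotation are not given in the sources used here. The deposited columns of p-value and fold change were not used, except to count that all 1767 p-values are under 0.05. The minimum of 200 counts in the study's methods was not applied to the table, where 439 genes stay below it in every sample.

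Counts were rounded and fitted with edgeR 4.0.16 (glmQLFit, glmQLFTest, R 4.3.3) over all 1767 genes and 11 samples with the authors' factors, without covariates, and p-values were adjusted after Benjamini and Hochberg over all genes. Scripts were tested on simulated data. Permutation tests and correlations used log2(normalized count + 0.5). Library pairs within a group differed beyond counting noise (chi-square per degree of freedom from 21.4 to 170). The design text gives as many injected mice as samples in each group. The 8 genes, the lists and the tests were chosen with earlier results of these data known. Genes named in the text are the 8, the listed genes in the table, the 10 nearest by likeness, Nfyc and the markers. Alternatives were TMM, DESeq2 1.42.0 and its size factors, genes with a maximum of at least 200 counts, a pseudocount of 5, a robust fit, the number series (3 to 10 against 21 to 23) or the glial score as covariate, replicates 3 to 10 alone, and each sample left out. Depth per library is known only as a range in the study's methods.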

Additional observations from a re-analysis of the deposited data

Results flagged for a closer look

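Samples were compared within each group for 65 genes and the glial marker score, 132 groups of samples in all. The measure was the gap of the most extreme sample to its neighbour relative to the range of the group, on log2 levels. The limit was 0.71 for 5 samples and 0.625 for 6. Chance flags about 1 in 20 such groups, and 11 were found, all in the knockdown group. Knockdown replicate 10 lay far below the other 4 knockdown samples in 10 of them. Of these, Irf7 with a normalized count of 6617 and Rsad2 with 2897 are among the 8 genes. The others are Dhx58 at 1056, Eif2ak2 at 1700, Trex1 at 876, Ifitm3 at 6447, Rtp4 at 3847, Trim30a at 3806, Oas1g at 1109 and Ifi44 at 424. These genes are not independent, since all 10 values come from 1 library. Knockdown replicate 8 lay far above the others for Mx2, at 1454. On the log2 scale no control sample passed its limit for any of these genes, control 3 included.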

How the results depend on the processing

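No paired analysis was run, because the 2 groups share no replicate number. The 8 genes were higher in the knockdown samples in 152 of 152 alternative fold changes and stayed on the same side of the threshold in 113. With the glial score as covariate, 0 of the 8 genes, 0 of the 39 listed interferon genes, 27 up-regulated and 7 down-regulated genes of the table were called by edgeR, while 3 of the 8 and 7 of the 39 were higher at an unadjusted p under 0.05, beside 15.4% of the table. With replicates 3 to 10 alone, 3 of the 8 genes (Mx1, Rsad2 and Ddx58), 8 of the 39, 128 up-regulated and 195 down-regulated genes were called. The 836 down-regulated genes became 377 with TMM, 413 with DESeq2 size factors and 459 with DESeq2. Leaving out 1 sample at a time gave 5 to 8 of the 8 genes, 16 to 38 of the 39, 355 to 568 up-regulated and 493 to 790 down-regulated genes, and 3 to 6 genes without overlap (an alternative chosen after seeing the data; 6 without control 3 and 5 without knockdown 10, beside 13.9% and 10.8% of the table's genes). Irf7, Mx1, Usp18, Rsad2 and Ddx58 were called in 11 of 11 such fits, Isg15 in 3, and Bst2 and Cxcl10 in 2 each, where fewer samples were fitted. In these fits the median log2 fold change of the 8 ran from 0.89 to 1.37 and the median r among controls from 0.91 to 0.96, while the glial score as covariate gave a median log2 fold change of 0.70. Fits with samples left out also hold fewer samples, and the causes of all these changes were not tested. Depth limits Oas1c and Ifnb1 most among the named interferon genes, with mean normalized counts of 35 and 58 in the controls.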
